A study of Homo sapiens with 6 samples.

Results

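Glycosaminoglycan synthesis was examined through 41 genes of the deposited count table, matched by gene symbol out of 60664 genes. The genes cover the supply of sulfate and UDP sugars, the linker that joins a chain to its protein, the enzymes of heparan sulfate and of chondroitin and dermatan sulfate, core proteins and extracellular sulfatases. All 41 symbols were found, each on 1 row. Counts were enough for a test in 37 of them, and 4 (XYLT1, NDST2, CHSY3 and SULF1) were too low. The group of genes was put together with the si-GLMP against NC results of these libraries already known, so the fold changes and adjusted p-values below describe each gene, and their number is not evidence about the pathway.

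The samples were RNA-seq libraries of PC9OR, which the labels describe as lung cancer cells. PC9 is an adenocarcinoma line of the lung with an activating EGFR mutation, and the series title concerns resistance to EGFR inhibitors. The labels do not spell out the suffix OR. In the NC group the 3 libraries carry the genotype label Control, and in the si-GLMP group the 3 libraries are labelled as a GLMP knockdown; no drug treatment, time point or siRNA sequence is given in the sources used here, and all libraries come from this 1 line. The labels do not say whether replicates came from separate cultures, so the p-values reflect only how far these libraries spread, and that spread may be technical.

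Glycosaminoglycans are long sugar chains carried by proteoglycans at the cell surface and in the matrix. Chains start on a serine of the core protein with a xylose, followed by galactose, galactose and glucuronic acid, and are then extended as heparan or chondroitin backbones. Sulfotransferases decorate the backbone in the Golgi, using the sulfate donor PAPS, which is built in the cytosol from sulfate taken up by transporters. The sulfate pattern decides which growth factors, chemokines and matrix proteins a chain holds, which is why syndecans and glypicans act as co-receptors in epithelial and carcinoma cells.

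Library totals lay between 19896875 and 22372878 counts. GLMP (ENSG00000198715), the gene targeted, had 309 to 347 counts in the NC libraries and 61 to 82 in the si-GLMP libraries, so the knockdown label held in each library. The epithelial markers EPCAM, CDH1, KRT8, KRT18, KRT19 and KRT7 summed to between 9109 and 9384 CPM in NC against between 8304 and 9294 CPM in si-GLMP (CPM: counts scaled to a common library total, with TMM factors). They did not move together: EPCAM (log2 fold change 0.30, edgeR adjusted p = 0.000294) and CDH1 (0.30, 0.000358) were called higher. KRT7 was called lower (-0.27, edgeR adjusted p = 0.00105), and KRT8, KRT18 and KRT19 were not called. Lung lineage markers were almost absent, with NKX2-1, NAPSA, SFTPB, SFTPC and SFTA3 together under 1 CPM in each library (0.343 to 0.775 CPM) and SFTA3 at 0. Of 9 fibroblast and mesenchymal markers 3 could be tested and 1 was called, COL1A1, at 5.38 ± 0.933 CPM in NC against 10.1 ± 0.672 CPM in si-GLMP (SD of 3 libraries each). The 9 summed to 6.61 to 8.39 CPM in NC against 11.0 to 13.0 CPM in si-GLMP, and COL1A1 made up most of each sum. The 2 others tested were not called, with PDGFRA at 0.512 CPM in NC against 0.338 CPM in si-GLMP and PDGFRB at 0.818 against 1.19 CPM. COL3A1 had 0 counts, and DCN and LUM had 0 or 1 count per group. The part of fibroblast or mesenchymal cells in the results below was not tested. The mitochondrial share of each library total was 6.57%, 8.76% and 6.51% under NC against 5.19%, 5.51% and 5.33% under si-GLMP. This share was lower in each si-GLMP library than in any NC library, and its part in the results below was not tested. In bulk RNA, fewer cells of a kind and less RNA per cell cannot be told apart.

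Among the members, 2 fell by more than 2-fold, and both are supply genes: the sulfate transporter gene SLC26A2 and UXS1, which makes UDP-xylose. The other changes were smaller and went in both directions. An edgeR adjusted p under 0.05 was reached by 18 of the 37 tested members, 10 higher and 8 lower in si-GLMP, while 23.3% of all 15900 tested genes passed (12.0% higher and 11.3% lower). The groups did not overlap in CPM for 18 of the 37 members and for 36.5% of all tested genes. The median log2 fold change was 0.07 over the members and 0.00 over all tested genes, and the median absolute log2 fold change was 0.20 and 0.18. Of the 18 called members, 14 were called in each of 14 alternative fits, and the exceptions were UGP2, EXT1, EXTL3 and HS6ST2.

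**Figure D1:**
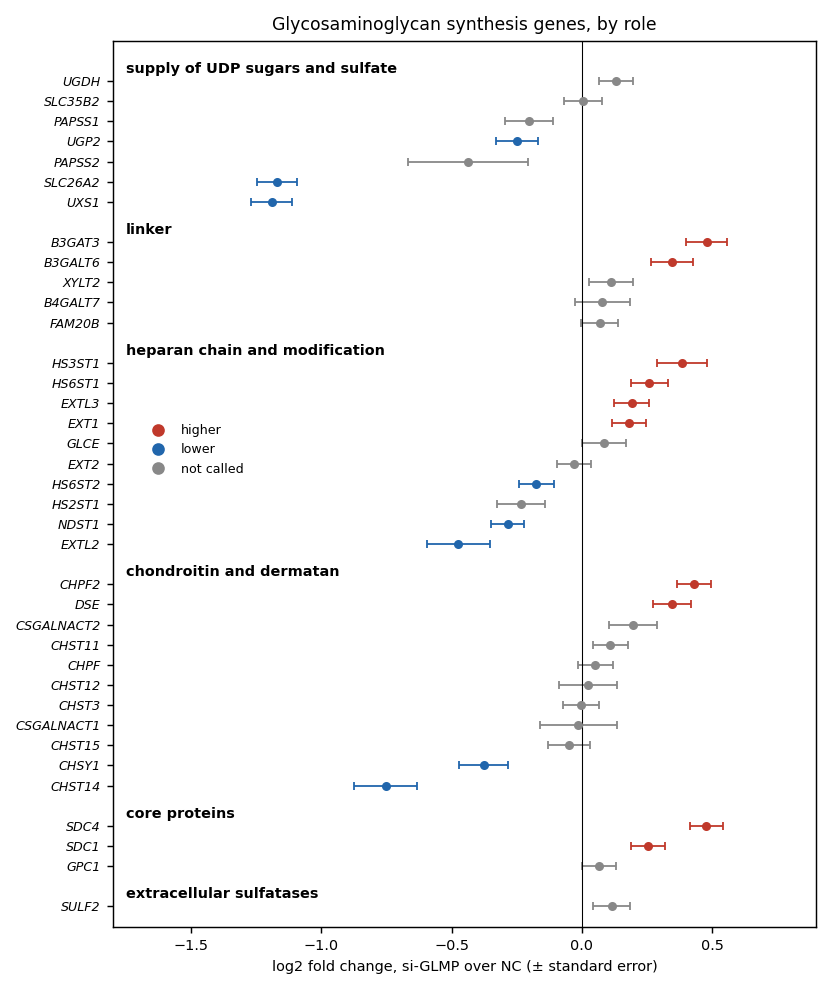
Log2 fold change of si-GLMP over NC (x axis, with standard error) for the 37 tested genes, grouped by role and coloured by the edgeR call. SLC26A2 at -1.17 and UXS1 at -1.19 lie far to the left of the others, which run from -0.75 (CHST14) to 0.48 (B3GAT3).

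The supply genes had 3 of 7 members lower and 4 not called. By edgeR, DESeq2 and limma-voom 0 of the 7 were called higher, and 1, UGDH, was higher at an unadjusted p under 0.05. SLC26A2 (ENSG00000155850) encodes a sulfate and chloride exchanger of the plasma membrane, known from inherited chondrodysplasias with undersulfated cartilage. Its level was 84.0, 78.6 and 85.2 CPM in NC replicates 1 to 3 and 34.7, 37.4 and 38.0 CPM in si-GLMP replicates 1 to 3. Each si-GLMP library lay below the 3 NC libraries by a gap far wider than the spread inside either group. The mean went from 82.6 ± 3.47 to 36.7 ± 1.74 CPM (SD of 3 libraries each), a log2 fold change of -1.17 ± 0.08 (standard error; edgeR adjusted p = 5.59e-18), which is a fall of 55.5%. The gene spans 149960737 to 149993455 on chromosome 5 (GRCh38, plus strand).

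UXS1 (ENSG00000115652; chromosome 2, 106093303 to 106194339, minus strand) encodes the Golgi decarboxylase that turns UDP-glucuronic acid into UDP-xylose, the donor for the sugar that starts every chain on its protein. Levels were 71.7, 77.9 and 74.5 CPM in the NC libraries, and 33.4, 30.9 and 33.9 CPM in the si-GLMP libraries. These groups were as clearly apart as those of SLC26A2. The log2 fold change was -1.19 ± 0.08 (standard error; edgeR adjusted p = 6.17e-18), a fall of 56.2%. Over the alternative fits, neither of these genes lost its call. Among all tested genes, 129 were called lower by more than 2-fold.

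UGDH, which makes the UDP-glucuronic acid that UXS1 consumes and that both chain types incorporate, was not called. It had 414, 466 and 443 CPM in NC against 482, 514 and 451 CPM in si-GLMP, and the groups overlapped (log2 fold change 0.13 ± 0.06, edgeR adjusted p = 0.146). UGP2, which makes the UDP-glucose that UGDH uses, had 51.1, 49.4 and 55.8 CPM in NC against 40.3, 47.6 and 43.5 CPM in si-GLMP. Its log2 fold change was -0.25 ± 0.08 (edgeR adjusted p = 0.0183). The groups were separate by a narrow margin, and the UGP2 call was lost without NC replicate 1 (adjusted p = 0.0512), NC replicate 3 (0.165), si-GLMP replicate 1 (0.105) or si-GLMP replicate 3 (0.0864).

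The 3 genes that activate and move sulfate inside the cell were not called by edgeR, DESeq2 or limma-voom, and 1, PAPSS1, was lower at an unadjusted p under 0.05. PAPSS1, the PAPS synthase gene with the higher level per exon length, had 30.8 ± 3.26 CPM in NC against 26.8 ± 0.805 CPM in si-GLMP (SD of 3 libraries each; edgeR adjusted p = 0.101). Its close relative PAPSS2 was low, at 2.76 ± 0.660 and 2.03 ± 0.417 CPM (adjusted p = 0.177). SLC35B2, the transporter that brings PAPS into the Golgi, had almost equal means of 69.8 ± 4.71 and 70.0 ± 3.55 CPM (adjusted p = 0.983).

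**Figure D2:**
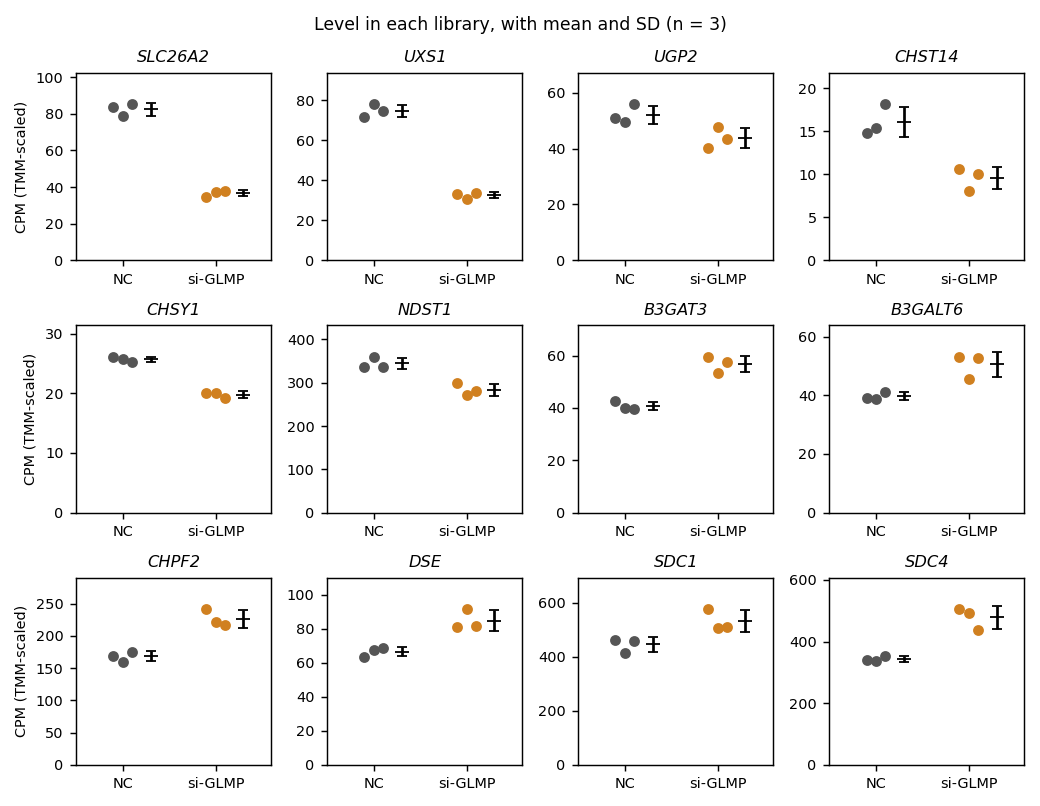
TMM-scaled CPM of 12 called genes (y axis from 0) in the 3 NC and the 3 si-GLMP libraries, with mean and SD beside the points. The groups do not overlap in any of the 12 panels, and the gap is widest, relative to the level, for SLC26A2 (82.6 against 36.7 CPM) and UXS1 (74.7 against 32.7 CPM).

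The promoter windows of the members with the largest falls and of those with the largest rises are shown, because these 4 genes carry the ends of the range. The sequences are from RefSeq (GRCh38.p14) and run 5′ to 3′ on the strand of the gene, from 250 bases before the start to 50 bases after. Capitals mark GGGCGG, a GC box, and CACGTG, an E-box core, on either strand; these matches do not overlap each other here. SLC26A2 and UXS1 are the lower pair, with windows at chr5:149960508-149960807 (plus strand) and chr2:106194252-106194551 (minus strand). For UXS1, the table has 3 windows, and the one at the upstream end of the gene is given.

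SLC26A2: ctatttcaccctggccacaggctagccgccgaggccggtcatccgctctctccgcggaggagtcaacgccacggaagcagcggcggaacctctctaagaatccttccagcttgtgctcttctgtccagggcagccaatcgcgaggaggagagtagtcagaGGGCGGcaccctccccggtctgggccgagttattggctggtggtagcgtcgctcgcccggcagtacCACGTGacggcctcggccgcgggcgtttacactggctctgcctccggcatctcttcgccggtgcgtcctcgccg

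UXS1: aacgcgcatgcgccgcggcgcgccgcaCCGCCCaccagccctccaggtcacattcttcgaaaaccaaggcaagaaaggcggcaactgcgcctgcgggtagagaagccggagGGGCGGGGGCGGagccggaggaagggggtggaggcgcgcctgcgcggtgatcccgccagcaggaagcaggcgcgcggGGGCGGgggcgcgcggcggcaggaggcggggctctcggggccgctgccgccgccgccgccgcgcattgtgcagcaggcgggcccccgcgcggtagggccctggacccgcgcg

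B3GAT3 and SDC4 are the higher pair, with windows at chr11:62621937-62622236 and chr20:45348375-45348674, both on the minus strand.

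B3GAT3: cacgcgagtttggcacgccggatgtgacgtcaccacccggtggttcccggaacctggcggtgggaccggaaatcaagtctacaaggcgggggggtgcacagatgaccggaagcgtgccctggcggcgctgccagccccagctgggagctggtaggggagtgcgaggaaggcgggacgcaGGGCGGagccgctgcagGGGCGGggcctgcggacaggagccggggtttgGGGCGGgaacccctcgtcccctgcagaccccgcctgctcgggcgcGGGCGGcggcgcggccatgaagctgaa

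SDC4: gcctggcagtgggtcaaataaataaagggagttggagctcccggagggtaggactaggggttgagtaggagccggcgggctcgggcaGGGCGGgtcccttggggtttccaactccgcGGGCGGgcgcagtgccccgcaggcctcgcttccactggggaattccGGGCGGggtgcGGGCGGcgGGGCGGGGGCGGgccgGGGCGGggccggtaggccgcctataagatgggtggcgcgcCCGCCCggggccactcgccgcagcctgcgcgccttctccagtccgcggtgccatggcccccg

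All 4 windows hold at least 1 GGGCGG, which 64.7% of the 15922 windows of tested genes and 79.6% of the 54 windows of the members also hold. CACGTG is found in the SLC26A2 window, 24 bases before the start, and in 9.13% of the windows of tested genes and 11.1% of those of the members. Neither TGANTCA, an AP-1 site, nor GGAATG, a TEAD core, is present in the 4 windows; over the windows of tested genes the shares are 5.61% and 11.6%, and over those of the members 5.56% and 11.1%. These 4 windows are GC-rich, with 66.0% in SLC26A2, 77.7% in UXS1, 72.3% in B3GAT3 and 74.0% in SDC4, where the median over the windows of tested genes is 64.7%. The UXS1 windows that are not printed have 43.7% and 37.3% GC and hold no match to these motifs. Which start these cells use was not measured. Windows were found for 36 of the 41 members, and the others were PAPSS2, EXT1, EXTL3, CSGALNACT1 and SULF1.

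The linker is assembled by a xylosyltransferase, a pair of galactosyltransferases and a glucuronosyltransferase. Of 5 tested members, 2 were higher and 3 were not called; 0 were called lower by edgeR, DESeq2 or limma-voom, and 0 were lower at an unadjusted p under 0.05. B3GAT3 (ENSG00000149541; chromosome 11, 62615296 to 62622175), which adds the glucuronic acid that completes the linker, had 42.5, 40.0 and 39.7 CPM in NC against 59.6, 53.4 and 57.4 CPM in si-GLMP. All si-GLMP libraries were above all NC libraries, and the log2 fold change was 0.48 ± 0.08 (standard error; edgeR adjusted p = 3.67e-06), a rise of 39.4%. B3GALT6, which adds the second galactose, had 39.2, 38.7 and 41.2 CPM in NC against 53.2, 45.7 and 52.7 CPM in si-GLMP, again without overlap (log2 fold change 0.35 ± 0.08, edgeR adjusted p = 0.000868).

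The enzymes of the earlier linker steps were not called. XYLT2, the xylosyltransferase that uses the product of UXS1, had 35.5 ± 2.18 CPM in NC against 38.4 ± 2.44 CPM in si-GLMP (SD of 3 libraries each; edgeR adjusted p = 0.379). XYLT1, the other xylosyltransferase, had 0 counts in each of the 6 libraries, which allows up to 3 counts, or 0.133 to 0.151 CPM, per library. B4GALT7, for the first galactose, had 19.1 ± 0.738 and 20.1 ± 3.31 CPM (adjusted p = 0.656). FAM20B, the kinase that phosphorylates the xylose, had 121, 119 and 116 CPM in NC against 115, 139 and 119 CPM in si-GLMP (adjusted p = 0.539).

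Heparan sulfate genes moved both ways. Among 10 tested, 4 were higher and 3 lower, and 3 were not called. EXT1 and EXT2 form the heparan polymerase, and only EXT1 was called: it had 234, 244 and 245 CPM in NC against 285, 283 and 252 CPM in si-GLMP (log2 fold change 0.18 ± 0.06, edgeR adjusted p = 0.0355). EXT2 had 125, 124 and 124 CPM in NC against 125, 119.9 and 120.5 CPM in si-GLMP, with overlap (log2 fold change -0.03 ± 0.07, adjusted p = 0.794). EXTL3, which starts the heparan backbone on the linker, had 103, 105 and 102 CPM in NC against 121, 116 and 117 CPM in si-GLMP (log2 fold change 0.19 ± 0.07, edgeR adjusted p = 0.0305). The EXT1 and EXTL3 calls were each lost in 5 of the 14 alternative fits, with adjusted p up to 0.176 without NC replicate 1 for EXT1 and up to 0.118 without NC replicate 1 or 3 for EXTL3. For EXT1 the other losses came with no filter on low counts (0.0629) and without NC replicate 3 (0.0790), si-GLMP replicate 1 (0.121) or si-GLMP replicate 2 (0.0792). For EXTL3 they came with no filter (0.0623) and without si-GLMP replicate 1 (0.0757) or 3 (0.0652).

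EXTL2, a transferase that can cap a phosphorylated linker and stop its extension, was lower. It had 14.0, 13.4 and 13.7 CPM in NC against 8.89, 11.0 and 9.59 CPM in si-GLMP, so that the groups stood apart (log2 fold change -0.47 ± 0.12, edgeR adjusted p = 0.00212). In the annotation, 8.87% of its exonic length is shared with a gene on the opposite strand, AC104506.1, and without strand information reads of that stretch cannot be assigned.

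NDST1, the N-deacetylase and N-sulfotransferase that opens heparan sulfation, was the most abundant modifying enzyme of the group per exon length. Its levels were 337, 360.4 and 337 CPM in NC against 299, 271 and 279.9 CPM in si-GLMP, without overlap (log2 fold change -0.28 ± 0.06, edgeR adjusted p = 0.000532), a fall of 17.9%. NDST2 had between 0 and 6 counts per library. It shares 82.9% of its exonic length on the same strand with the gene AC022400.6, which had 0 counts in all 6 libraries, so its level cannot be read from this table. GLCE, the epimerase that makes iduronic acid, was not called at 37.0 ± 1.66 and 39.2 ± 3.17 CPM (SD of 3 libraries each; adjusted p = 0.522). HS2ST1, which sulfates that iduronic acid, had 30.8, 27.5 and 33.8 CPM in NC against 25.1, 27.8 and 25.5 CPM in si-GLMP (log2 fold change -0.23 ± 0.09, adjusted p = 0.0575). Its groups overlapped only through replicate 2 of each. Without NC replicate 2 it passed (adjusted p = 0.0179), as it did without si-GLMP replicate 2 (0.0348).

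The 6-O-sulfotransferase genes had opposite signs. HS6ST1 had 92.4, 82.9 and 91.8 CPM in NC against 112, 102 and 106 CPM in si-GLMP (log2 fold change 0.26 ± 0.07, edgeR adjusted p = 0.00434). HS6ST2 had 126, 127 and 128 CPM in NC against 112, 112 and 114 CPM in si-GLMP (log2 fold change -0.17 ± 0.07, edgeR adjusted p = 0.0480). Both pairs of groups were separate, but the HS6ST2 call was at the threshold. It was lost in 7 of 14 alternative fits: with upper-quartile scaling (adjusted p = 0.0622), with no filter (0.132), and without NC replicate 1 (0.148), NC replicate 2 (0.0800), NC replicate 3 (0.172), si-GLMP replicate 1 (0.0813) or si-GLMP replicate 3 (0.118). HS3ST1, whose 3-O-sulfation makes the antithrombin-binding site of heparan sulfate, had 18.9, 18.7 and 18.7 CPM in NC against 23.8, 25.4 and 24.2 CPM in si-GLMP (log2 fold change 0.38 ± 0.10, edgeR adjusted p = 0.00180). The spread within NC was very small here, and the rise was 30.5%.

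In chondroitin and dermatan synthesis, 11 members were tested, of which 2 were higher, 2 were lower and 7 were not called. CHPF2 (ENSG00000033100), a chondroitin polymerizing factor, had 169.5, 159.8 and 175 CPM in NC against 242, 222 and 216 CPM in si-GLMP (log2 fold change 0.43 ± 0.07, edgeR adjusted p = 8.98e-07). CHSY1, the chondroitin synthase that works with such factors, had 26.2, 25.7 and 25.3 CPM in NC against 20.1, 20.1 and 19.2 CPM in si-GLMP (log2 fold change -0.38 ± 0.09, edgeR adjusted p = 0.00182). The groups of both genes were well separated, in opposite directions. CHPF, the other polymerizing factor, was not called, at 164, 165 and 159 CPM in NC against 174, 153 and 177 CPM in si-GLMP (adjusted p = 0.640). CHSY3, a second synthase, had 0 counts in all 6 libraries, the same limit as XYLT1.

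CHST14 (ENSG00000169105; chromosome 15, 40470998 to 40474571), the dermatan 4-O-sulfotransferase, had the third-largest fall of the members. Its levels were 14.8, 15.4 and 18.1 CPM in NC against 10.6, 8.06 and 10.1 CPM in si-GLMP. All si-GLMP libraries were below the lowest NC library, with a log2 fold change of -0.75 ± 0.12 (standard error; edgeR adjusted p = 2.58e-06), a fall of 40.7%. DSE, the epimerase that makes the iduronic acid next to which CHST14 places sulfate, went the other way, with 63.7, 67.4 and 68.7 CPM in NC against 80.8, 91.8 and 81.4 CPM in si-GLMP (log2 fold change 0.35 ± 0.07, edgeR adjusted p = 0.000243).

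Of the 4 other chondroitin sulfotransferases among the members, 0 were called by edgeR, limma-voom or DESeq2, and 0 had an unadjusted edgeR p under 0.05. CHST11, a 4-O-sulfotransferase, had 125, 141 and 128 CPM in NC against 143, 143 and 139 CPM in si-GLMP (adjusted p = 0.256); without replicate 2 of both groups it passed (0.0480). CHST3, a 6-O-sulfotransferase, had 109.8, 114 and 116 CPM in NC against 117, 112 and 110.3 CPM in si-GLMP (adjusted p = 0.981). CHST12 and CHST15, for 4-O-sulfation and for the 4,6-disulfated unit, had log2 fold changes of 0.02 ± 0.11 and -0.05 ± 0.08. The initiating transferases CSGALNACT1 and CSGALNACT2 had -0.01 ± 0.15 and 0.20 ± 0.09, and CSGALNACT2 passed without si-GLMP replicate 1 (adjusted p = 0.0352).

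Of 3 core proteins of the cell surface, 2 were higher and 1 was not called. SDC4 (ENSG00000124145; chromosome 20, 45325288 to 45348424), syndecan-4, a co-receptor with integrins at focal adhesions, had 341, 336 and 354 CPM in NC against 506, 494 and 437 CPM in si-GLMP. The lowest si-GLMP library was well above the highest NC library, with a log2 fold change of 0.48 ± 0.06 (standard error; edgeR adjusted p = 4.89e-08), a rise of 39.3%. SDC1, syndecan-1, the main epithelial syndecan, had 463, 414 and 459 CPM in NC against 577, 505 and 509.6 CPM in si-GLMP (log2 fold change 0.25 ± 0.07, edgeR adjusted p = 0.00260). GPC1, glypican-1, anchored by a lipid, had 374, 345 and 366 CPM in NC against 415, 347 and 375 CPM in si-GLMP, with overlap (adjusted p = 0.519).

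Of the extracellular enzymes that remove 6-O-sulfate from finished chains, SULF2 was expressed and SULF1 was not measurable, with 1 count in all from NC and 3 from si-GLMP. SULF2 had 193, 234 and 194 CPM in NC against 229.6, 207 and 235 CPM in si-GLMP (log2 fold change 0.11 ± 0.07, adjusted p = 0.260). NC replicate 2 was as high as the si-GLMP libraries. Without it SULF2 passed, at 0.21 on the log2 scale (adjusted p = 0.0260), so this value depends on that library.

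Scaled to exon length, the core proteins and UGDH led the tested members in NC. The level was 132 ± 3.58 CPM per kilobase for SDC4, 124 ± 7.53 for SDC1, 109 ± 6.41 for UGDH and 55.5 ± 2.31 for GPC1 (SD, n = 3). Within each NC library SDC4 was above SDC1, at ratios of 1.01, 1.12 and 1.06, and this difference was not tested. Chondroitin polymerizing factors followed, with 48.4 ± 0.914 for CHPF and 40.0 ± 1.86 for CHPF2, and then NDST1 with 36.2 ± 1.40. UXS1 and SLC26A2 held ranks 19 and 20 of the 41 in NC, with 10.6 ± 0.446 and 9.60 ± 0.404 CPM per kilobase. At the low end of the tested members were CSGALNACT1 (0.967 ± 0.106), CHST12 (0.886 ± 0.0509) and PAPSS2 (0.676 ± 0.162). Exon length here is the union over all annotated transcripts, so the scale sets a gene too low where its longest exons are little used; which exons these cells use was not measured here.

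**Figure D3:**
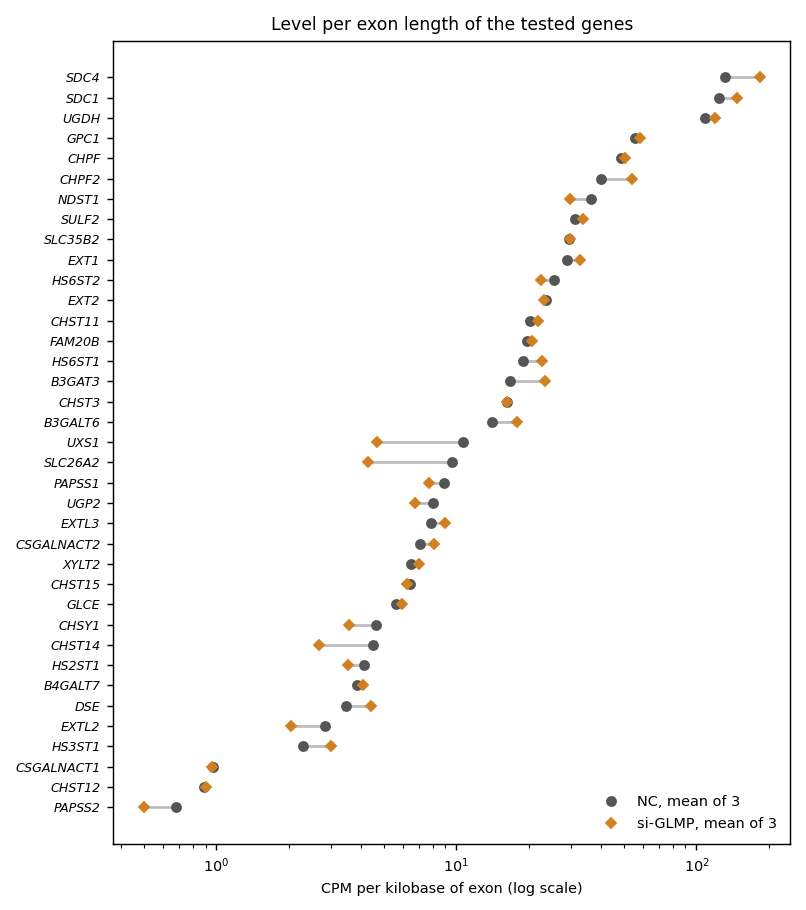
Mean level per kilobase of exon (log axis) of the 37 tested genes in NC and si-GLMP, ordered by the NC value. The core proteins SDC4 and SDC1 and the enzyme gene UGDH are at the top, from 109 to 132 CPM per kilobase in NC, and the longest shifts to the left are those of UXS1 and SLC26A2.

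Ratios within a library show how genes of neighbouring steps stood to each other; the pairs were chosen after the values were seen, and no test was made. The ratio of UXS1 to UGDH, per exon length, was 0.0997, 0.0964 and 0.0968 in NC and 0.0399, 0.0346 and 0.0433 in si-GLMP. That of CHST14 to DSE was 1.25, 1.22 and 1.42 in NC and 0.702, 0.472 and 0.665 in si-GLMP. In both cases the si-GLMP ratios were below every NC ratio. CHSY1 to CHPF2 went from 0.116 ± 0.00619 to 0.0662 ± 0.00308 (SD of 3 libraries each), and HS6ST1 to HS6ST2 from 0.749 ± 0.0452 to 1.01 ± 0.0519. EXT1 to EXT2 and SDC4 to SDC1 moved less, from 1.23 ± 0.0373 to 1.42 ± 0.0873 and from 1.06 ± 0.0511 to 1.24 ± 0.0879. Of the pairs not drawn, NDST1 to HS2ST1 overlapped between groups, at 8.85 ± 1.26 in NC and 8.48 ± 0.851 in si-GLMP. SLC26A2 to SLC35B2 went from 0.326 ± 0.0338 to 0.144 ± 0.0128.

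**Figure D4:**
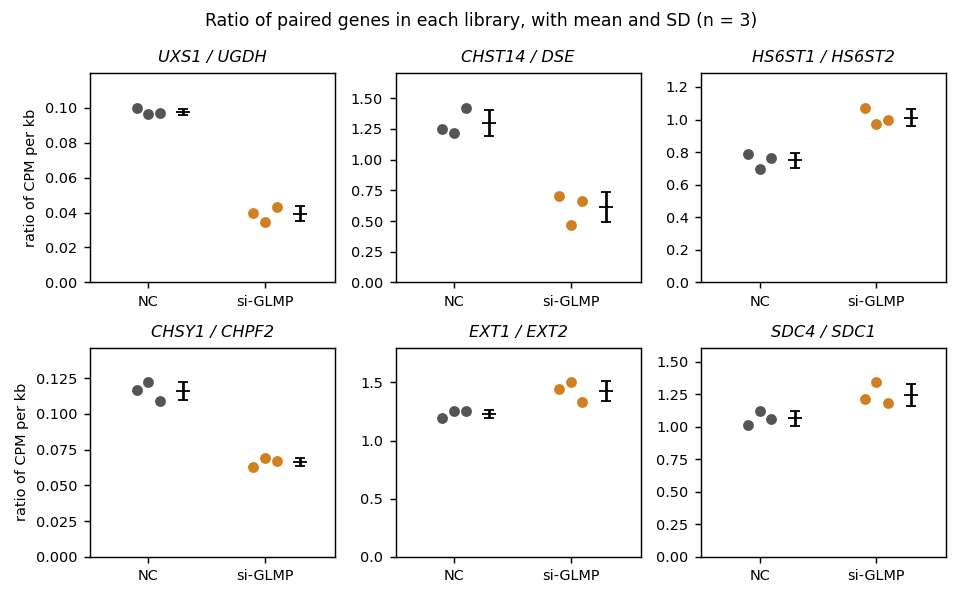
Ratio of the exon-length-scaled CPM of 6 gene pairs in each library, with mean and SD beside the points (y axes from 0). The UXS1 to UGDH ratio fell from about 0.0977 to 0.0392 on average and the CHST14 to DSE ratio from 1.3 to 0.613, while HS6ST1 to HS6ST2 moved up from 0.749 to 1.01.

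A wider list of 97 other genes of the pathway was set up by role. Earlier results of these data were already known then, so the counts below are a description. Counts allowed a test in 64 of them: 15 were higher, 9 lower and 40 not called, beside the 23.3% called among all tested genes, and the median log2 fold change was 0.11. Among the 16 genes of sugar and sulfate supply, 3 were higher and 1 lower. GFPT1, which commits fructose 6-phosphate to hexosamine synthesis, had a rise of 0.45 ± 0.07 in log2 units (edgeR adjusted p = 1.12e-06), its relative GFPT2 by 0.40 and the hexokinase gene HK2 by 0.25. UAP1, which makes UDP-N-acetylglucosamine at the end of that route, had -0.38 ± 0.08 (edgeR adjusted p = 0.000223). The remaining sulfate transporters of the list were not called, with 1.82 ± 0.296 CPM in NC for SLC26A1 and 14.6 ± 0.989 CPM for SLC26A6 (SD of 3 libraries).

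Only the NDST1, HS6ST1, HS6ST2, HS2ST1 and HS3ST1 transcripts were at testable levels among the heparan sulfotransferases examined, with NDST2 unreadable. All 9 others, NDST3, NDST4, HS6ST3, HS3ST2, HS3ST3A1, HS3ST3B1, HS3ST4, HS3ST5 and HS3ST6, had at most 10 counts summed over a group and were not tested. Of 4 tested further genes listed under linker and chain initiation, B4GALT1, a galactosyltransferase, was higher at 0.26. The galactoses of the linker are added by B4GALT7 and B3GALT6, so the B4GALT1 value is not a linker result. PXYLP1, on the same list, was not called at -0.36 ± 0.14 (edgeR adjusted p = 0.0550), though its groups did not overlap. It was called in 2 of the 14 alternative fits. There were 4 tested further enzymes of chondroitin, dermatan and keratan chains. B3GNT2, which extends lactosamine and keratan backbones, was higher at 0.45, and B4GALT4, a galactosyltransferase of keratan sulfate, lower at -0.51. The sulfotransferase genes CHST7 and UST were not called. CHST7 had 0.39 ± 0.16 (edgeR adjusted p = 0.0748), was higher at an unadjusted p under 0.05, and its groups did not overlap. UST had 0.07 ± 0.14 (edgeR adjusted p = 0.798), with overlap.

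Hyaluronan, the glycosaminoglycan made without a core protein or sulfate, had 2 genes higher and 1 lower of 8 tested. HAS3, the synthase expressed here, had 297, 304 and 298 CPM in NC against 404, 372 and 335 CPM in si-GLMP (log2 fold change 0.30 ± 0.07, edgeR adjusted p = 0.000319). CEMIP2, a cell-surface protein linked to hyaluronan breakdown, rose by 0.41. CD44, the hyaluronan receptor, had 1328, 1522 and 1321 CPM in NC against 1200, 1193 and 1079.8 CPM in si-GLMP (log2 fold change -0.26 ± 0.07, edgeR adjusted p = 0.00171); the call was lost without si-GLMP replicate 3 (adjusted p = 0.0558).

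Breakdown genes had 4 of 16 tested members higher and 2 lower. SUMF1 (ENSG00000144455), which activates sulfatases by forming their catalytic formylglycine, had 24.8, 21.5 and 26.6 CPM in NC against 14.3, 10.1 and 11.3 CPM in si-GLMP. The groups were far apart, and the log2 fold change was -1.03 ± 0.11 (standard error; edgeR adjusted p = 3.13e-10). Its paralogue SUMF2 rose by 0.30, and SGSH, a lysosomal sulfatase of heparan sulfate, by 0.27, with an adjusted p of 0.0559 by edgeR without si-GLMP replicate 3.

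Of 16 tested further core proteins 4 were higher and 4 lower. SDC3, syndecan-3, had 32.9, 35.1 and 36.8 CPM in NC against 22.2, 18.7 and 24.0 CPM in si-GLMP (log2 fold change -0.69 ± 0.09, edgeR adjusted p = 4.98e-08), opposite in sign to SDC1 and SDC4. SPOCK1, testican-1, a secreted proteoglycan, had -0.77 ± 0.09. SRGN, serglycin, a proteoglycan of secretory granules, had 98.4, 104 and 99.9 CPM in NC against 144, 164 and 141 CPM in si-GLMP (log2 fold change 0.57 ± 0.07, edgeR adjusted p = 3.32e-09). NRP1, a receptor that can carry a chain, rose by 0.30. SDC2, ACAN and FMOD had 0 counts in all 6 libraries.

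**Figure D5:**
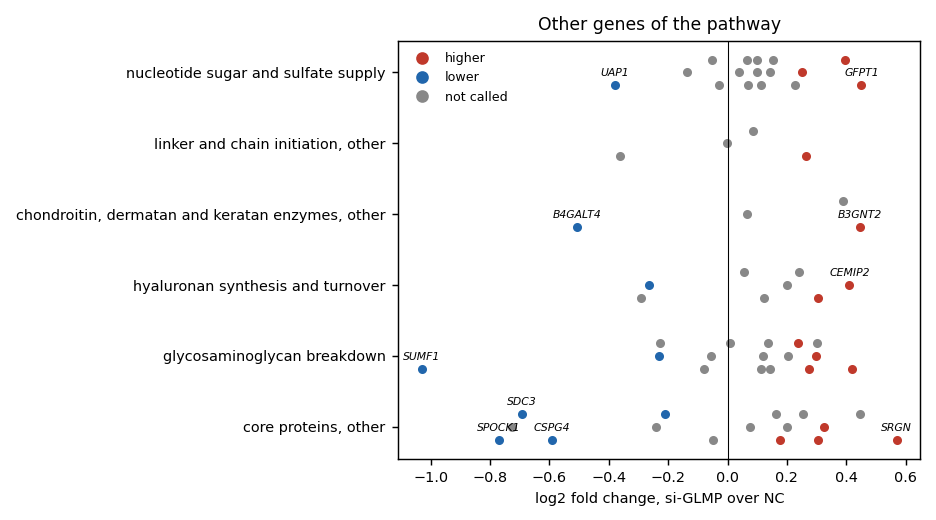
Log2 fold change of si-GLMP over NC for the 64 tested other genes of the pathway, 1 point per gene, by list and coloured by the edgeR call. SUMF1 at -1.03 is the lowest point, SPOCK1 and SDC3 follow at -0.77 and -0.69, and SRGN at 0.57 is the highest.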

How the data were processed

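RNA was extracted with Trizol and made into Illumina mRNA libraries, per the labels' protocols. The authors deposited raw read counts per gene, which were whole numbers without normalization. HISAT2 and GRCh38 are named, without version, in the submitters' processing notes; for the counting tool, annotation release and strand setting the answer is: not given in the sources used here. All 6 count columns were matched to samples by title.

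Counts were tested with edgeR 4.0.16 (R 4.3.3): filterByExpr with a minimum count of 10 kept 15900 of 60664 genes, libraries were scaled by TMM (factors 0.9639 to 1.018), and groups were compared by the robust quasi-likelihood F test with Benjamini-Hochberg adjustment over all tested genes and a threshold of 0.05. Standard errors were taken as the fold change (log2) over the root of F. The library totals set a floor of 3 counts, 0.133 to 0.151 CPM. Floors cover counting error only. Exon lengths, overlaps and positions are from GENCODE 29 (GRCh38), which may not be the release the authors used; all 41 members were found in it.

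Values in every library are printed for members called or with a mean of at least 100 CPM, and up to 4 called genes per related list are named, of which 1 is not reported here. Genes, lists and this rule were chosen with earlier results of these data known. On simulated data drawn from NC means (13803 genes), 38, 41, 48 and 49 of 50 genes changed by 1.3, 1.5, 2 and 3-fold were recovered and 8 unchanged genes were called. Every simulated gene was given the same dispersion and no replicate effect, so recovery and false calls in the real libraries may differ.

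As alternatives, the fit was repeated with upper-quartile or RLE scaling, without a filter, with at least 1 CPM in 3 libraries, leaving out each library, blocking on the replicate number, and in limma-voom (limma 3.58.1) and DESeq2 1.42.0. Leaving out replicate 2 of both groups was added after the data were seen, because the second principal component set these libraries apart.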

Additional observations from a re-analysis of the deposited data

How the results depend on the processing

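No member or related count changed by more than 1.5 times under RLE or upper-quartile scaling, no filter, the 1 CPM filter, DESeq2 or limma-voom, and no called member changed sign in any of the 14 fits. With a library left out in turn, members called higher numbered 8 to 11 and lower 6 to 9; related genes called higher numbered 11 to 16 and lower 5 to 9. The 5 came without si-GLMP replicate 3, when CD44, IDS, COL18A1 and CSPG4 lost their calls; the cause was not tested. IDS was called in 7 of 14 fits. Without replicate 2 of both groups, 12 members were higher and 9 lower.

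The replicate numbers are shared by the groups, and the second principal component set replicate 2 of both groups apart. Over the tested genes, the deviations of same-numbered libraries from their group means correlated at 0.0388, 0.0263 and 0.00128 for replicates 1 to 3, and NC replicate 3 correlated more with si-GLMP replicate 2 (0.00963) than with its own number, so the libraries were not taken as pairs. With the replicate number as a block, 10 members were higher and 8 lower, as without it, and 2052 genes were higher and 1920 lower over all genes, against 1910 and 1802.

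Genes under about 10 counts per library were not tested: 4 members and 33 related genes. XYLT1, CHSY3 and 10 of these related genes had 0 counts in all libraries, and NDST2 could not be read because of its overlap.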
